A study of Mus musculus with 4 samples.

Results

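The enzymes that make and inactivate estrogen were read in tumors that arose in ERα d/d ovaries, and in ERα f/f ovaries. The set was chosen by name. It held 9 genes: Cyp19a1, Hsd17b1, Hsd17b7 and Hsd17b12 on the side of synthesis, and Hsd17b2, Hsd17b4, Hsd17b11, Sult1e1 and Cyp1b1 on the side of oxidation and inactivation. Every probe set on the array that named 1 of these genes alone was kept, with no filter on its signal. A probe set is a group of short probes that together give 1 signal for a transcript. This gave 17 probe sets of 8 genes, out of 45037 probe sets tested and 18193 named genes. Cyp19a1, the aromatase that turns androgens into estrogens, was the member without a probe set named by the probe table used, and it was not analysed here.

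RNA from C57BL/6 females was hybridised to 4 Affymetrix mouse arrays. Each genotype had 1 array at the age of 5 months and 1 at 10 months, and each array carried RNA pooled from 3 mice. The ERα d/d mice had floxed alleles of the estrogen receptor α gene (Esr1) and a Cre recombinase placed in the progesterone receptor gene (Pgr), so Esr1 was removed where Pgr is active. The ERα f/f controls carried the floxed alleles without Cre. According to the study's description, Cre acts in the corpora lutea, oviduct, uterus, pituitary and mammary gland, while the ovarian surface and tumor cells keep the receptor, so the tumors formed in animals that lack the receptor in several other organs. Title and source name of each sample give the same age, but a separate age field names 5 months for the 10-month ovary pool and 10 months for the 5-month tumor pool. The titles were followed here, and by the other field genotype and age cannot be told apart.

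The signals are linear fluorescence intensities. The median signal of an array was between 34.6 and 39.4, and a probe set below the median of its array is called dim here, because such a signal is close to background: the brightest of 3 Y-linked genes, which females lack, reached 13.4. Esr1 had signals of 2232 and 2492 in the ovary pools at 5 and 10 months and of 431 and 697 in the tumor pools, a fall by 2.10 on the log2 scale (standard error 0.23, limma adjusted p = 0.0319). The deletion itself is not checked by these values, since no source used here states which stretch of Esr1 is read. The 3′ to 5′ ratio of Gapdh, which is higher where RNA is shortened, was 1.09 and 1.11 in the ovary pools and 1.13 and 1.41 in the tumor pools. All differences below are tumor minus ovary on the log2 scale, tested with limma, with p-values adjusted over all probe sets by the Benjamini-Hochberg method and called below 0.05. With 2 pools per genotype, the p-values rest in part on the spread between these pools, which also differ in age. The rest is a variance that limma shares across probe sets of like brightness. Nothing says how much of the spread lies between animals. In such bulk RNA, fewer cells of a type and less RNA per cell cannot be told apart.

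Estrogens are made in the ovary from androgens by aromatase, and the balance between weak estrone and strong estradiol is then set by 17β-hydroxysteroid dehydrogenases. Some of these enzymes, such as Hsd17b1 and Hsd17b7, mainly reduce estrone to estradiol, and others, such as Hsd17b2 and Hsd17b4, mainly oxidise estradiol back to estrone. Estrogens are further inactivated by sulfation, by Sult1e1, and by hydroxylation to catechol estrogens, by Cyp1b1. Several members of the dehydrogenase family also act in lipid metabolism: Hsd17b7 reduces a keto group in cholesterol synthesis, Hsd17b12 in fatty acid elongation, Hsd17b4 works in peroxisomal β-oxidation, and Hsd17b11 sits on lipid droplets.

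Of the 17 member probe sets, 3 passed the test in limma as lower in tumor than in ovary and 0 as higher. All 3 belonged to Hsd17b7. Over all probe sets tested, 0.36% were called lower and 0.22% higher. At an unadjusted p under 0.05, limma marked 9 of the 17 member probe sets and 5136 of all probe sets. The methods' t-test, run per probe set, called 0 member probe sets after adjustment and marked 5 of the 17 without it, and limma without a variance trend called 0 and marked 6. Both of these called 0 over all 45037 probe sets, so the counts of related genes given below come from limma with the trend. Read without any test, both tumor signals lay above both ovary signals for 7 member probe sets and below them for 4, while 6 overlapped. The same held for 19.7% (above) and 22.1% (below) of all probe sets. The deposited signals were at least 2-fold apart the same way at both ages for 1 member probe set upward, that of Sult1e1, and for 4 downward, those of Hsd17b7, against 3.22% upward and 4.29% downward over all probe sets. For Sult1e1 and for 1 of the 4, 1440057_at, 1 genotype was dim (below the array median), so a 2-fold change was not measured there. Of the 17 probe sets, 13 were above the array median on all 4 arrays, and 2 were above it on none.

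**Figure D1:**
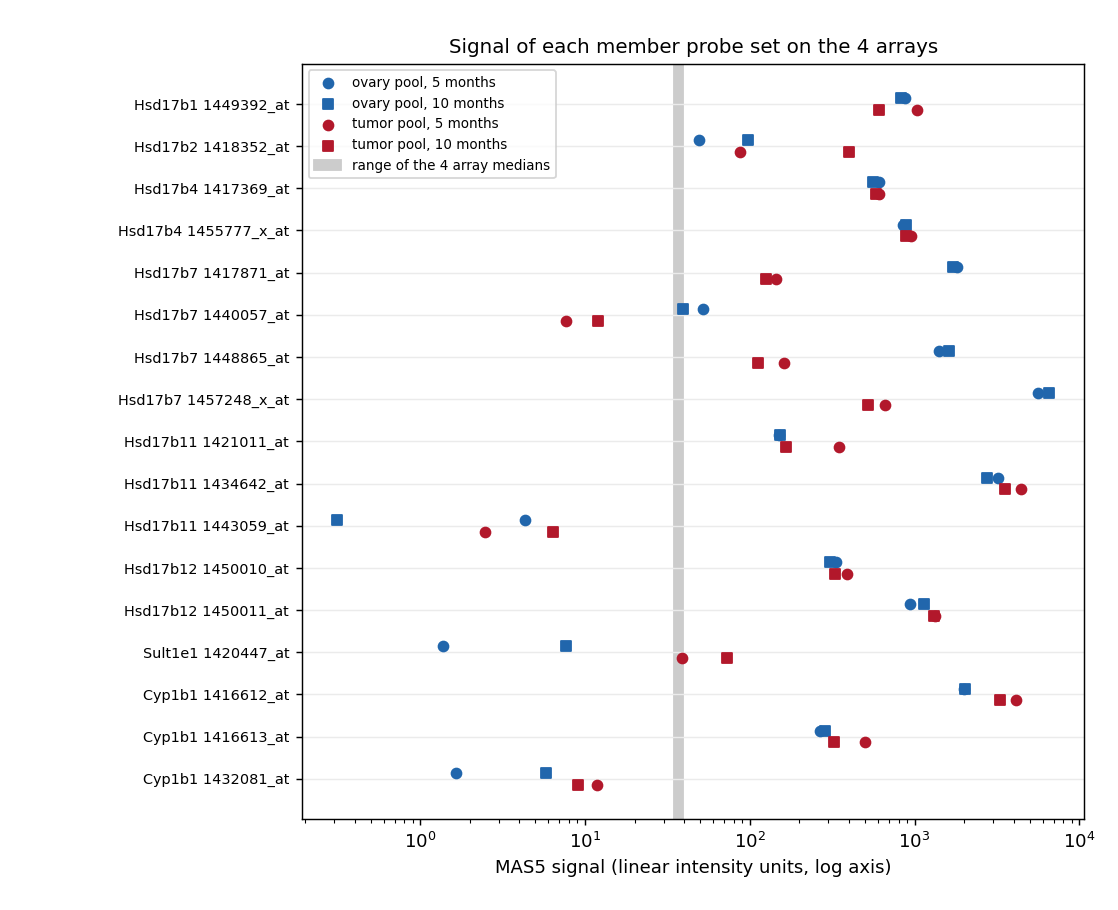
MAS5 signal (linear intensity units on a log axis) of each of the 17 member probe sets, with circles for the 5-month and squares for the 10-month pools, blue for ovary and red for tumor, and a grey band for the range of the 4 array medians. The tumor signals of the 3 brighter Hsd17b7 probe sets lie far left of the ovary signals, those of Sult1e1 lie to the right of ovary signals that are below the band, and most other members lie close together.

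Hsd17b7, which reduces estrone to estradiol and also serves cholesterol synthesis, fell in the tumors, with signals 10.3- to 13.1-fold lower on the 3 probe sets that were above the array median on all 4 arrays. It is known in rodents as an abundant enzyme of the corpus luteum. Since it was the member that passed the test, the sequence upstream of its start site is shown for orientation, from the RefSeq annotation of GRCm38.p6 (chr1:169969243-169969455, minus strand, 250 to 38 bases before the start site, 213 bases). Capitals mark matches, on either strand, to the CCAAT box (CCAAT), the E-box (CACGTG), the GC box (GGGCGG) and the core of the site bound by the aryl hydrocarbon receptor (GCGTG).

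Hsd17b7: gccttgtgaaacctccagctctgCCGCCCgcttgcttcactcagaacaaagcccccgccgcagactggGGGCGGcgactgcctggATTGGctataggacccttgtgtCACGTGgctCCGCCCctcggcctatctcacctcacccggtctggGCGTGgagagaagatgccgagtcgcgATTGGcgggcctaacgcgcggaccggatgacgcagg

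The window held CCAAT at 165 and 73 bases before the start site, in both cases on the opposite strand, and CACGTG at 143 bases. It held GGGCGG at 227, 182 and 134 bases, and GCGTG at 99 bases. Among 32851 promoter windows of this length, 30.2% held CCAAT, 4.79% CACGTG, 27.4% GGGCGG and 24.2% GCGTG. The search also covered the sterol regulatory element as TCACNCCAC (0.88% of the windows), the NR5A site as CAAGGTCA (1.2%) and the estrogen response element core as AGGTCA (12.2%), and CAAGGTCA contains AGGTCA. These are matches of letters, not sites shown to be used.

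The Hsd17b7 probe set 1417871_at had signals of 1808 and 1711 in the ovary pools at 5 and 10 months and of 144 and 125 in the tumor pools. Both tumor signals were far below both ovary signals, and the pools of a genotype lay close together. The difference was -3.71 (standard error 0.13, 95% interval -4.02 to -3.41), a signal 13.1-fold lower, with a limma adjusted p of 0.000999. By p-value it stood at place 4 among the 45037 probe sets. At 5 months the signal was 12.6-fold lower and at 10 months 13.7-fold lower, each from single arrays.

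A further probe set of Hsd17b7, 1448865_at, read 1411 and 1626 in the ovary pools and 162 and 112 in the tumor pools. The groups again lay wide apart, and the difference was -3.49 (standard error 0.20, 95% interval -3.98 to -3.01, adjusted p = 0.00828), or 11.3-fold lower. The brightest, 1457248_x_at, read 5637 and 6540.0 in the ovary pools and 659.9 and 523 in the tumor pools. Its suffix marks probes that can also match other transcripts, yet its difference of -3.37 (standard error 0.15, 95% interval -3.74 to -3.00, adjusted p = 0.00299) was close to those of the other probe sets. It was 8.54-fold lower at 5 months and 12.5-fold lower at 10 months.

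The dimmest probe set of Hsd17b7, 1440057_at, read 51.8 and 39.2 in the ovary pools and 7.69 and 12.1 in the tumor pools. Both tumor signals were dim, so only a bound can be given, a signal at least 1.25-fold lower, and it did not pass the test (adjusted p = 0.145). Among the 23239 probe sets above the median on at least 2 arrays, the other 3 held places 42, 56 and 64 from the lowest difference.

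The Hsd17b7 calls were lost when either ovary array was left out. Such a fit leaves 1 ovary pool, which is assumed to vary as the tumor pools do. Without the 5-month ovary array the adjusted p of 1417871_at, 1448865_at and 1457248_x_at was 0.0596, 0.131 and 0.0596, and without the 10-month ovary array it was 0.0639, 0.208 and 0.0786, so that 0 of the 17 member probe sets passed in either case. In these fits 1 and 5 of all probe sets passed. Without the 10-month tumor array 1440057_at passed as well (adjusted p = 0.0476). A fit without a tumor array leaves 1 tumor pool, which is assumed to vary as the ovary pools do, and it called 4.66% of all probe sets without the 5-month and 3.11% without the 10-month tumor array. The size of the difference moved little: over all alternatives it stayed between -3.81 and -3.43 for 1417871_at, between -3.76 and -3.21 for 1448865_at, and between -3.54 and -3.20 for 1457248_x_at.

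**Figure D2:**
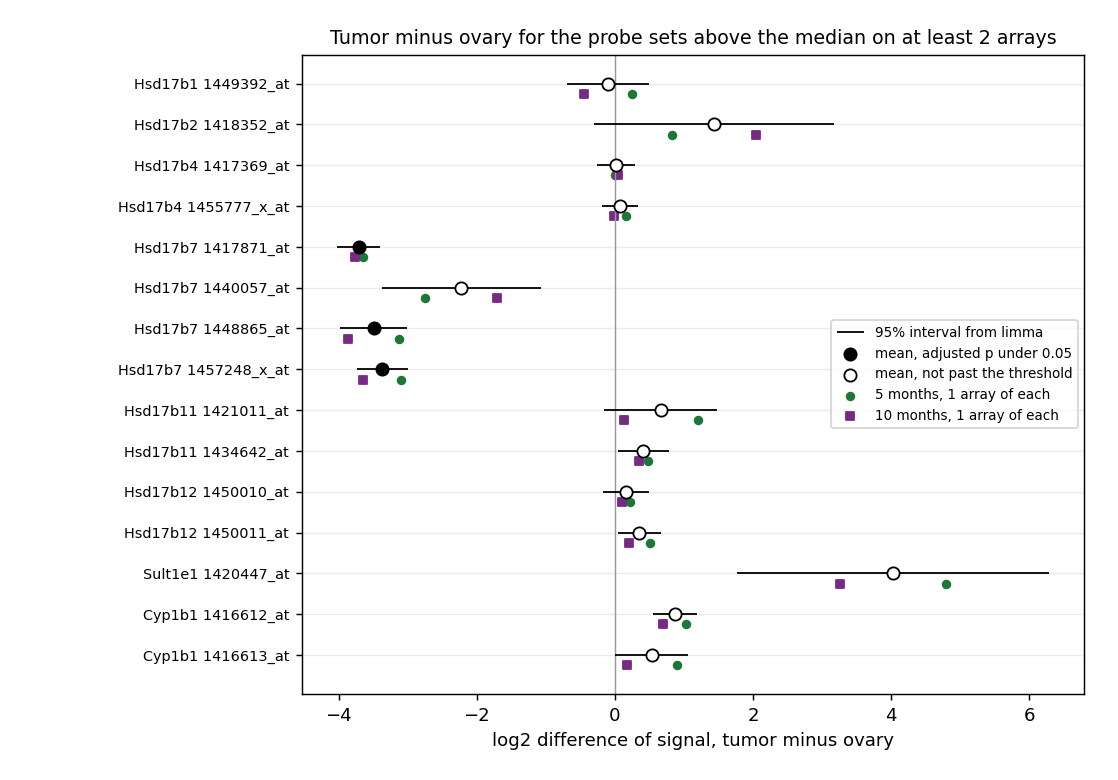
Tumor minus ovary difference of log2 signal for the 15 member probe sets above the median on at least 2 arrays, as the mean with its 95% interval from limma (filled where the adjusted p is under 0.05) and, below each, the differences at 5 months (green circles) and 10 months (purple squares) from single arrays. The 3 filled points, at -3.71, -3.49 and -3.37, are all Hsd17b7, and the interval of Sult1e1 is wide because its ovary signals are near background.

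By root mean square distance of centred log2 signals over the 4 arrays, among 11736 genes compared, the genes most like Hsd17b7 were Des, Sftpd and Padi1. Des, which encodes the muscle filament desmin, was at a distance of 0.149 and read 767 and 1002 in the ovary pools and 114 and 92.3 in the tumor pools (difference -3.10, adjusted p = 0.00939). Sftpd, surfactant protein D, was at 0.180 and read 202 and 213 in the ovary pools and 21.8 and 13.4 in the tumor pools, both dim. Padi1, a peptidylarginine deiminase, was at 0.187 and read 247 and 338 in the ovary pools and 41.7 and 26.9 in the tumor pools. These 3 were picked on the same 4 arrays, so their low tumor signals are a description.

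Markers of the corpus luteum and of the oviduct epithelium are given here beside Hsd17b7, and their part in its difference was not tested. Of 8 corpus luteum markers measured, 0 passed the test in limma (5 at an unadjusted p under 0.05), 6 had both tumor signals below both ovary signals, against 24.9% of the 18193 named genes, and their median difference was -0.61. The other 2 were Akr1c18, with 2425 and 625 in the ovary pools and 537 and 1045 in the tumor pools, and Hsd3b1, with 14363 and 12489 against 10262 and 13003. Among the 6, Scarb1 differed by only -0.07 and Cyp11a1 by -0.30. Akr1c18, Hsd3b1, Scarb1, Cyp11a1 and Star were also read among the steroid synthesis genes below, so these lists are not separate. The summed signal of the 8 markers was 43651 and 37689 in the ovary pools and 31904 and 31658 in the tumor pools. Ptgfr, the prostaglandin F receptor, read 1116 and 881 in the ovary pools and 324 and 59.8 in the tumor pools (adjusted p = 0.212). Star, which carries cholesterol into mitochondria, read 2836 and 2112 against 1877 and 921 (adjusted p = 0.392), and Parm1 had a difference of -0.75 (adjusted p = 0.429). Lhcgr and Prlr were not analysed here.

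Of 9 oviduct epithelium markers measured, 3 fell in limma (Pax8, Rsph1 and Ccdc39), 0 rose, and the median difference of the 9 was -1.48. Krt7, a keratin, ran the other way in value, with 199 and 314 in the ovary pools and 254 and 1170 in the tumor pools (difference 1.12, adjusted p = 0.625). Read from 1 probe set a gene, 0.61% of the 18193 named genes were called lower and 0.341% higher. Pax8, a transcription factor of oviduct secretory cells, was dim in both tumor pools and at least 2.83-fold lower (adjusted p = 0.0447). Rsph1 and Ccdc39, parts of motile cilia, fell by 1.51 (adjusted p = 0.0326) and by 1.48 (adjusted p = 0.0397) on the log2 scale. The summed signal of the list was 14547 and 14844 in the ovary pools and 5397 and 3705 in the tumor pools. Most of the ovary sums came from 1 gene that did not pass the test, Ovgp1. It read 11597 and 11819 in the ovary pools and 4108 and 918 in the tumor pools (adjusted p = 0.196), so the sums do not stand for the whole list.

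In cholesterol synthesis, the other pathway of Hsd17b7, 16 of 18 listed genes were measured, and 0 passed limma in either direction (6 at an unadjusted p under 0.05). The median difference was -0.23, with 0.11 at 5 months and -0.64 at 10 months. Both tumor signals lay below both ovary signals for 8 genes and above for 2, against 24.9% below and 21.2% above over all named genes. Fdps, farnesyl diphosphate synthase, had the largest difference and read 1342 and 1237 in the ovary pools and 852 and 406 in the tumor pools (-1.13, adjusted p = 0.263). Idi1, isopentenyl diphosphate isomerase, had a difference of -0.85 (adjusted p = 0.149) and Dhcr7, the reductase of the last step, of -0.63 (adjusted p = 0.169).

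**Figure D3:**
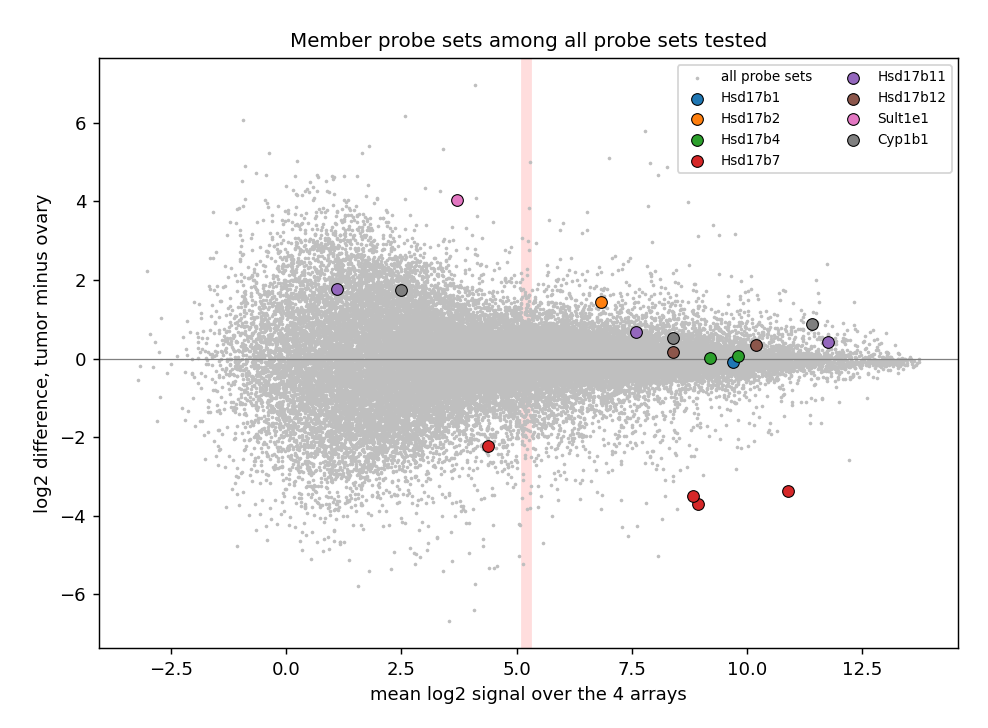
Tumor minus ovary difference of log2 signal against the mean log2 signal over the 4 arrays, with every probe set tested in grey, member probe sets coloured by gene and the range of the array medians as a pink band. The 3 bright Hsd17b7 probe sets, at -3.71, -3.49 and -3.37, stand apart at the lower edge of the cloud, and the Sult1e1 point lies left of the band, where the scatter of dim probe sets is widest.

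Hsd17b1, the main estradiol-forming dehydrogenase of granulosa cells, did not pass the test. Its probe set 1449392_at read 871 and 832 in the ovary pools and 1039 and 608 in the tumor pools. The ovary signals lay between the tumor signals, with the 5-month tumor pool highest and the 10-month tumor pool lowest. The difference was -0.10 (standard error 0.25, adjusted p = 0.926), and its 95% interval of -0.70 to 0.50 leaves room for a change in either direction.

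The granulosa cell markers beside it were mixed. All 10 were measured, 0 passed limma in either direction (5 at an unadjusted p under 0.05), and the median difference was -0.03. Their summed signal was 21142 and 19577 in the ovary pools and 22985 and 20740 in the tumor pools, so the ranges overlapped. Amh, the anti-Müllerian hormone, read 120 and 69.2 in the ovary pools and 75.1 and 15.0 in the tumor pools (adjusted p = 0.564), while its receptor gene Amhr2 read 1587 and 1662 against 3006 and 4269 (difference 1.14, adjusted p = 0.0683). Inhbb, an inhibin and activin subunit, had a difference of -1.17 (adjusted p = 0.311).

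Hsd17b12, which reduces long-chain ketoacyl groups in fatty acid elongation and can reduce estrone, was slightly brighter in the tumors without passing the test. Its probe set 1450011_at read 940.4 and 1138 in the ovary pools and 1332 and 1316 in the tumor pools, which did not overlap (difference 0.36, standard error 0.13, 95% interval 0.05 to 0.67, adjusted p = 0.367). On 1450010_at the groups overlapped, with 333 and 308 in the ovary pools and 387 and 331 in the tumor pools (difference 0.16, 95% interval -0.18 to 0.50, adjusted p = 0.740).

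Beside Hsd17b12, all 11 listed genes of fatty acid elongation were measured, and 0 passed limma in either direction (5 at an unadjusted p under 0.05), with a median difference of -0.28. The listed genes with the largest differences were Elovl2 (1.51, adjusted p = 0.578) and Elovl7 (-0.85, adjusted p = 0.350), both elongases, and the dehydratase Hacd1 (-0.74, adjusted p = 0.215). Elovl2 was high on the 5-month tumor array alone, at 388, with 43.7 and 67.1 in the ovary pools and 61.4 in the 10-month tumor pool.

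Among the enzymes that oxidise estradiol, Hsd17b2 had its highest signal in 1 pool. Its probe set 1418352_at read 49.4 and 97.8 in the ovary pools and 87.7 and 401 in the tumor pools. The 10-month tumor pool stood far above the other 3 arrays, while the 5-month tumor pool lay between the ovary pools. The difference was 1.43 with a standard error of 0.71 (95% interval -0.30 to 3.17, adjusted p = 0.542). Tumor over ovary was 1.78-fold at 5 months and 4.10-fold at 10 months, and the signal at 10 months exceeded that at 5 months by 0.99 in the ovary and by 2.19 in the tumor on the log2 scale. Without the 5-month tumor array the difference became 2.53, and without the 10-month tumor array it became 0.34. Each of these values rests on 1 tumor pool.

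Hsd17b4, the peroxisomal bifunctional enzyme that also oxidises estradiol, was nearly level across the 4 arrays. Its probe set 1417369_at read 607 and 561 in the ovary pools and 605 and 579.9 in the tumor pools. The groups overlapped, and the difference was 0.02 (standard error 0.11, adjusted p = 0.969). Its 95% interval of -0.25 to 0.30 was among the narrowest of the members. On 1455777_x_at the signals were 856 and 888 in the ovary pools and 959 and 883 in the tumor pools (difference 0.08, 95% interval -0.18 to 0.34, adjusted p = 0.849).

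Of the peroxisomal β-oxidation genes listed beside Hsd17b4, 11 of 13 were measured, and 0 passed limma in either direction (2 at an unadjusted p under 0.05), with a median difference of -0.07. Acox2, a branched-chain acyl-CoA oxidase, was dim in both tumor pools and at least 1.84-fold lower (adjusted p = 0.250). Amacr, a racemase of branched fatty acids, had a difference of 0.92 (adjusted p = 0.489), and Crot, which forms carnitine esters for export, of -0.55 (adjusted p = 0.174).

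Hsd17b11, a lipid droplet enzyme that oxidises steroids at the same carbon, was somewhat brighter in the tumors. Its probe set 1434642_at read 3205 and 2767 in the ovary pools and 4451 and 3532 in the tumor pools. These did not overlap, and the difference was 0.41 (standard error 0.15, 95% interval 0.05 to 0.78, adjusted p = 0.379). On 1421011_at the signals were 151 and 153 in the ovary pools and 348 and 167 in the tumor pools. There the 5-month tumor pool stood apart and the 10-month tumor pool lay just above the ovary pools. The difference was 0.66 (95% interval -0.15 to 1.48, adjusted p = 0.552). Without the 10-month tumor array it was 1.20, a value that rests on 1 tumor pool. The probe set 1443059_at was dim on all 4 arrays, at 6.38 or less, and gives no fold.

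Of 11 lipid droplet genes listed beside Hsd17b11, 10 were measured, 0 passed limma in either direction (3 at an unadjusted p under 0.05), 5 had both tumor signals below both ovary signals (24.9% of all named genes did), and the median difference was -0.45. Plin4 and Plin5, which coat lipid droplets, had differences of -1.90 (adjusted p = 0.134) and -0.995 (adjusted p = 0.160). Cidea, which enlarges droplets, was dim in both tumor pools and at least 1.63-fold lower (adjusted p = 0.180).

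Of 6 other 17β-hydroxysteroid dehydrogenases listed, 5 were measured, and 0 passed limma in either direction (1 at an unadjusted p under 0.05), with a median of -0.45 that rests mostly on dim signals. Only Hsd17b10, a mitochondrial enzyme, was above the median on at least 2 arrays, at 1008 and 1001 in the ovary pools and 1414 and 1645 in the tumor pools (difference 0.60, adjusted p = 0.117). Hsd17b3, which makes testosterone in the testis, read between 1.80 and 40.1 and was above the median on the 10-month tumor array alone.

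Sult1e1, the sulfotransferase with the highest affinity for estradiol, was above the array median in the tumors alone. Its probe set 1420447_at read 1.38 and 7.63 in the ovary pools, both dim, and 38.6 and 72.9 in the tumor pools, where the array medians were 34.6 and 37.4. The groups did not overlap. The medians of the ovary arrays were 39.4 at 5 months and 35.2 at 10 months. Because the ovary signals were at background, the fold is a bound, at least 1.42-fold higher as a mean over both ages. At 5 months the tumor signal lay below the ovary array median, so that age alone bounds no rise. The test was not passed (adjusted p = 0.173). With ovary signals at background, the fitted difference in the plot of differences is not a measured fold.

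Beside Sult1e1, 8 of 10 other genes of estrogen conjugation and oxidation were measured, and 0 passed limma in either direction (1 at an unadjusted p under 0.05), with a median difference of 0.32. Sult1a1, a phenol sulfotransferase that also takes estrogens, read 237 and 215 in the ovary pools and 443 and 576 in the tumor pools (difference 1.16, adjusted p = 0.0550). Papss2, which makes the sulfate donor, read 694 and 572 in the ovary pools and 1935 and 654 in the tumor pools (adjusted p = 0.597), and its partner Papss1 had a difference of -0.26 (adjusted p = 0.493). Cyp1a1 and Cyp1a2, which hydroxylate estrogens in the liver and elsewhere, were dim on all 4 arrays.

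Cyp1b1, the cytochrome P450 that hydroxylates estradiol to catechol estrogens, came closest to the threshold among the members that did not pass it. Its probe set 1416612_at read 2009 and 2033 in the ovary pools and 4122 and 3309 in the tumor pools. The ovary pools nearly coincided, and both tumor pools lay above them. The difference was 0.87 (standard error 0.13, 95% interval 0.54 to 1.19), a signal 1.83-fold higher, with an adjusted p of 0.0667. Tumor over ovary was 2.05-fold at 5 months and 1.63-fold at 10 months.

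The call for Cyp1b1 depended on the setting. Among the fits on all 4 arrays, it passed with quantile normalization (adjusted p = 0.0452) and with dim signals set to the array median (adjusted p = 0.0381). The latter fit was adjusted over only the 24968 probe sets that were not dim on all arrays. The difference was 0.71 without the 5-month and 1.03 without the 10-month tumor array, each resting on 1 tumor pool. Without the 5-month and the 10-month ovary array the difference was 0.86 and 0.88, and the test was not passed. On 1416613_at the signals were 267 and 288 in the ovary pools and 498 and 324 in the tumor pools (difference 0.53, 95% interval 0.01 to 1.06, adjusted p = 0.433). Without the 10-month tumor array that difference was 0.84, again from 1 tumor pool. The third probe set, 1432081_at, was dim on all 4 arrays, at 11.8 or less.

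The upstream window of Cyp1b1 is shown because the gene is a known target of the aryl hydrocarbon receptor, whose genes were read beside it (GRCm38.p6, RefSeq, chr17:79715099-79715311, minus strand, 250 to 38 bases before the start site). Capitals mark the same motifs as for Hsd17b7.

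Cyp1b1: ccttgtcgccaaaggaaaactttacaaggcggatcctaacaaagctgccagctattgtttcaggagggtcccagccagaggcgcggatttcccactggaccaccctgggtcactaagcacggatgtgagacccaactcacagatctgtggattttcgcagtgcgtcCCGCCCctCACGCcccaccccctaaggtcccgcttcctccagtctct

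This window held GGGCGG on the opposite strand at 84 bases and GCGTG on the opposite strand, as CACGC, at 76 bases before the start site. Of 8 genes listed for the aryl hydrocarbon receptor, all were measured, 4 of them dim on every array, and 0 passed limma in either direction (1 at an unadjusted p under 0.05). The median difference was 0.17. The receptor gene Ahr had a difference of -0.41 (adjusted p = 0.363), its partner Arnt of 0.24 (adjusted p = 0.842) and its target Tiparp of 0.21 (adjusted p = 0.702).

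The highest signals of Cyp1b1, Hsd17b2 and Sult1e1 were on tumor arrays, as were those of Hsd17b1, Hsd17b11, Hsd17b12 and 1 Hsd17b4 probe set, 1455777_x_at. Macrophage markers are given beside Cyp1b1, Hsd17b2 and Sult1e1, and their part in the values of these genes was not tested. Of 10 measured, 1 rose in limma (C1qa, a complement subunit, difference 1.21, adjusted p = 0.0351), 9 had both tumor signals above both ovary signals, against 21.2% of all named genes, and the median difference was 1.05. The exception was Cd163, with 41.9 and 47.1 in the ovary pools and 37.2 and 13.7 in the tumor pools (adjusted p = 0.585). Their summed signal was 4651 and 4335 in the ovary pools and 9710 and 16684 in the tumor pools. Of 8 stroma and matrix markers, 1 fell (Lum, the matrix proteoglycan lumican, difference -1.48, adjusted p = 0.0200), 0 rose and the median was -0.03. Both tumor signals lay above both ovary signals for 3 of them and below for 3, against 21.2% and 24.9% of all named genes. Pdgfra ran the other way from Lum, with 992 and 1062 in the ovary pools and 1900 and 2682 in the tumor pools (difference 1.14, adjusted p = 0.0683). The summed signal of the list was 23589 and 25072 in the ovary pools and 25086 and 24817 in the tumor pools.

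The steps that supply the androgen for estrogen synthesis were read through 9 of 13 listed genes. In limma 1 rose, 0 fell, and the median difference was -0.20. The gene that rose was Cyp17a1, which forms androgens in theca cells, with signals of 1736 and 1576 in the ovary pools and 5843 and 4740 in the tumor pools (difference 1.67, standard error 0.14, adjusted p = 0.0198). It is also the gene that rose among the 5 theca and Leydig cell markers measured, whose median difference was 0.14. The summed signal of these markers was 4730 and 4244 in the ovary pools and 9686 and 7229 in the tumor pools, and Cyp17a1 made up most of the tumor sums. Nr2f2, Ptch1 and Gli1 had differences of 0.14, 0.10 and 0.14, none past the threshold, and Hsd17b3 was dim on all but the 10-month tumor array.

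Of 12 listed estrogen and gonadotropin receptors and gonadal transcription factors, 11 were measured, 0 rose and 1 fell, which was Esr1, the gene targeted in these mice. Their median difference was 0.14. Of the 8 members read from 1 probe set each, 0 rose, 1 fell and the median difference was 0.38. At an unadjusted p under 0.05, limma marked 5 of these 8 members and 2749 of all named genes. Over all 18193 named genes the median difference was -0.02.

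**Figure D4:**
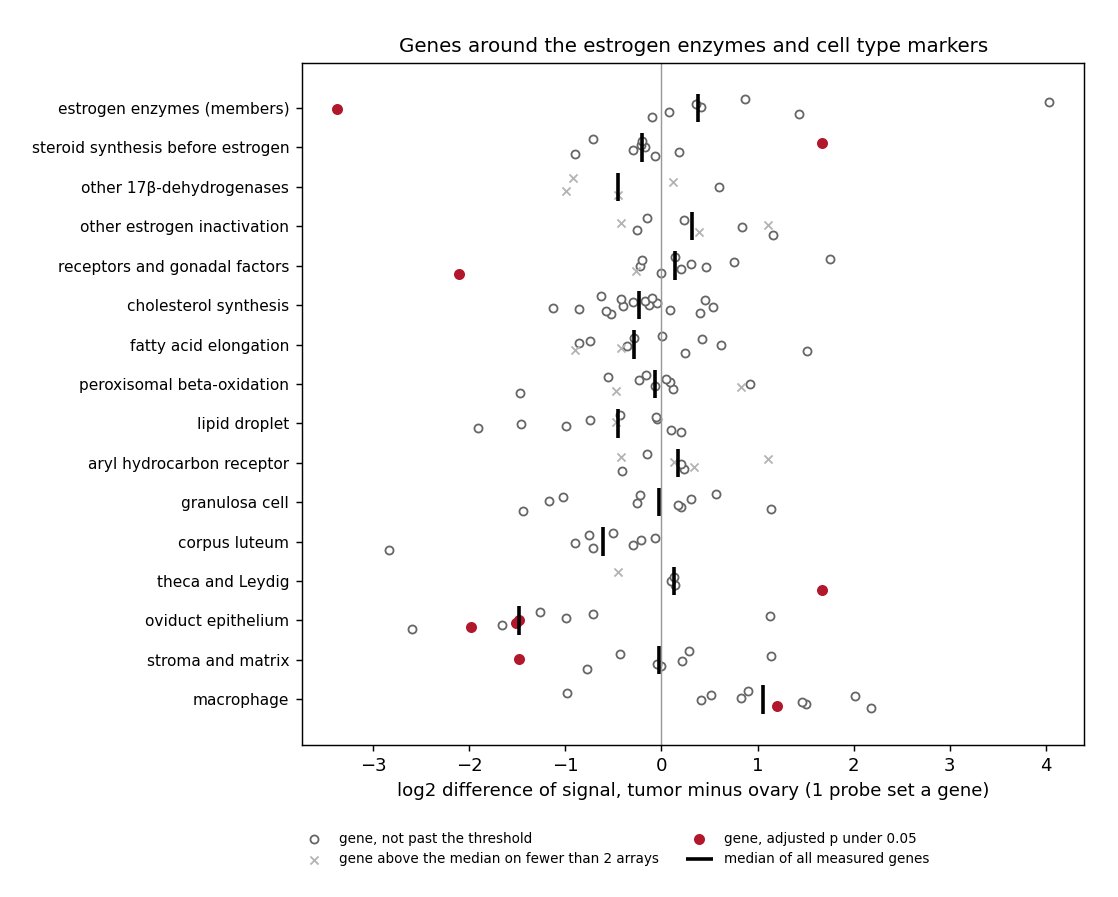
Tumor minus ovary difference of log2 signal, 1 probe set a gene, for the estrogen enzymes and 15 lists of related genes and cell type markers, with red for an adjusted p under 0.05, crosses for genes above the array median on fewer than 2 arrays and a black bar for each list's median. The oviduct list has the lowest median (-1.48) and the macrophage list the highest (1.05), and the red point of the estrogen enzymes is Hsd17b7 at -3.37.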

How the data were processed

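Total RNA of 3 mice was pooled for each of 4 arrays. The submitters' processing notes name MAS5 and Affymetrix Expression Console 1.1, with which the authors made the deposited signal intensity of each probe set. The arrays share a mean of 150.0 once 2% of values at each end are left out, so amounts are relative. MAS5 subtracts local background, which makes log2 differences of dim probe sets unstable. Genome build and detection calls are not given in the sources used here.

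Of 45101 probe sets, 64 controls were left out. A single gene is named by the probe table for 34945 of the others, 34741 of which matched a RefSeq gene identifier, and several genes for 932, which named no gene here. Log2 signals, with no pseudocount and no filter, were fitted with limma 3.58.1 in R 4.3.3 (lmFit, eBayes with a variance trend), 2 tumor against 2 ovary arrays, with Benjamini-Hochberg adjustment over 45037 probe sets. There were 2 residual degrees of freedom and a median of 4.05 prior ones. The fit was tested on simulated data. The number of arrays limits the precision. No test was made of differences within 1 age, which compare single arrays. Where a gene was dim on both arrays of 1 genotype only, its fold is a bound against the array medians. Levels of different probe sets were not tested against each other, and summed signals and rankings by brightness are descriptions of the deposited signals.

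The members, the 15 lists of related genes and cell type markers and the Y-linked background list were chosen with earlier results of these data known. Named were all members by every probe set and the 3 genes most like a member that passed. From each list came the genes that passed the test. Lists without such a gene gave the 3 with the largest difference among those above the median on at least 2 arrays. Hsd17b3, Akr1c18, Hsd3b1, Scarb1, Cyp11a1, Ovgp1, Krt7, Cd163, Pdgfra, Nr2f2, Ptch1, Gli1, the genes named as dim and those not analysed were added after their values were seen. Where 1 value a gene was needed, the probe set of highest mean log2 signal gave it. The 3 Y-linked genes measured were dim on all arrays and none passed limma (0 at an unadjusted p under 0.05), with a median difference of -0.47. Alternatives were quantile normalization, equal 75th percentiles, a floor at the array median, a pseudocount of 32, 2 filters on dim probe sets, 1 probe set a gene, age as a block, no variance trend, the methods' t-test and leaving out each array. The floor fit also left out probe sets dim on all arrays. Promoter windows were read from a table drawn from RefSeq (GRCm38.p6), in which 5 of the 8 measured members were matched. Python 3.11.15 with matplotlib 3.10.9 drew the figures.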

Additional observations from a re-analysis of the deposited data

Results flagged for a closer look

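The tumor minus ovary difference had opposite signs at the ages of 5 and 10 months, each read from 1 array of each genotype, for 3 of the 15 member probe sets above the array median on at least 2 arrays. For Hsd17b1 it was 0.25 at 5 months and -0.45 at 10 months. For Hsd17b4 it was -0.0047 and 0.048 on 1417369_at, and 0.16 and -0.0069 on 1455777_x_at. The difference between the ages was not tested, since there is 1 array for each genotype and age. None of these probe sets passed the test between genotypes.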

How the results depend on the processing

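The 3 called Hsd17b7 probe sets kept their direction under every alternative run and passed the threshold under 9 of 13 (1417871_at and 1448865_at) and 10 of 14 (1457248_x_at) of them, with adjusted p between 5.77e-05 and 0.432. Without a variance trend (smallest adjusted p over all probe sets 0.262) and with the methods' t-test (0.0800), 0 member probe sets were lower, and over all probe sets 0 were called higher and 0 lower, with 4124 and 4032 at an unadjusted p under 0.05. With 1 probe set a gene, 1 member was lower. Member probe sets called higher numbered 1 with quantile normalization and 1 with dim signals set to the array median. Leaving out single arrays gave 0 to 3 higher and 0 to 4 lower members, and 1 to 970 higher and 0 to 1129 lower over all probe sets. The counts over all probe sets were 28 higher and 51 lower with the pseudocount of 32, and 194 and 274 with age as a block. The floor called 200 higher and 314 lower, among only the 24968 probe sets that were not dim on all arrays. Age as a block served as the paired fit and changed no member's call. Each age holds 1 array of a genotype, and the labels give no replicate numbers. Member probe sets without overlap became 4 above and 1 below with 1 probe set a gene, those at least 2-fold lower at both ages became 1, and those at least 2-fold higher became 0 when only probe sets above the median on all 4 arrays were kept. Without single arrays Hsd17b1 ranged from -0.49 (5-month tumor left out) to 0.29 (10-month tumor left out, opposite in sign), and Hsd17b4 (1417369_at) from -0.035 (10-month ovary left out, opposite in sign) to 0.078 (5-month ovary left out), with -0.0090, also opposite, without the 5-month tumor array. Over the 15 member probe sets compared, 178 values kept direction and side of the threshold, 12 lost the call, 8 gained one and 3 turned.

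Of the list medians, 92 values moved by less than the standard deviation of that list's medians at 5 and 10 months, and 35 by more. A list whose ages differ widely thus has a wide limit. The cholesterol synthesis list, with medians of 0.11 at 5 months and -0.64 at 10 months, stayed within it. Its median was -0.52 without the 5-month and -0.03 without the 10-month tumor array. Without single arrays the medians ranged from -0.11 to 0.34 (aryl hydrocarbon receptor), -0.72 to -0.33 (corpus luteum), -0.15 to 0.31 (receptors and gonadal factors), -0.34 to 0.01 (elongation), -0.51 to 0.16 (granulosa), -0.64 to -0.11 (lipid droplet), -0.78 to 0.71 (other dehydrogenases), 0.03 to 0.52 (conjugation), -0.25 to 0.07 (peroxisomal), -0.03 to 0.36 (theca and Leydig), -0.23 to -0.11 (steroid synthesis) and -0.68 to -0.14 (Y-linked). The floor gave 0.03 (aryl hydrocarbon receptor), 0.0026 (elongation) and 0.30 (other dehydrogenases). Its fit left out genes dim on all arrays, so these 3 medians cover fewer genes than the main medians of the same lists. The pseudocount gave -0.21 (lipid droplet), 0.045 (other dehydrogenases), 0.15 (conjugation) and -0.05 (Y-linked), and quantile normalization -0.13 (steroid synthesis). Apart from this change of genes under the floor, the cause of the shifts was not tested. The median difference of all probe sets stayed between -0.02 and 0.01 under the scalings tried.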
